A study of Saccharomyces cerevisiae with 2 samples.

Results

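The 10 histone genes of budding yeast were followed in RNA bound to Cbc2, a subunit of the nuclear cap-binding complex, after 6 h of meiosis. They were chosen by name: HTA1 and HTA2 (H2A), HTB1 and HTB2 (H2B), HHT1 and HHT2 (H3), HHF1 and HHF2 (H4), the H2A variant gene HTZ1 and the linker histone gene HHO1. They are 10 of 6698 open reading frames (ORFs) in the deposited ORF table. With the 100 bp segments from 500 bp before to 500 bp after each ORF they cover 137 of 121500 segments. RNA was compared between a trf4Δ strain (homozygous trf4::NatMX6) and wild type, with 1 library per genotype, so no difference has a replicate check and no p-value is given. Both strains were SK1 diploids homozygous for CBC2-TAP-TRP1 and shared the markers ho::LYS2, lys2, ura3, leu2::hisG, his3::hisG and trp1::hisG. Trf4 is the poly(A) polymerase of the TRAMP complex, which hands RNA to the nuclear exosome. TAP is an affinity tag used to purify Cbc2 with the capped RNA it holds. The comparison asks which RNAs change in amount when TRAMP lacks Trf4.

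Histones package DNA into nucleosomes, each built from H2A, H2B, H3 and H4. In budding yeast the core histone genes lie as divergent pairs, in which an H2A gene faces an H2B gene, or an H3 gene an H4 gene, across a shared promoter. They are transcribed mainly in S phase and are activated by Spt10, Spt21 and SBF (Swi4-Swi6). Most of them, but not all, are repressed outside S phase by the HIR complex with Asf1 and Rtt106. Htz1 replaces H2A in nucleosomes beside promoters and is put there by the SWR1 complex, and Hho1 is related to the H1 histones of other eukaryotes. In mitotic yeast, Trf4, its paralog Trf5 and the exosome subunit Rrp6 have been linked to histone mRNA levels. Cryptic unstable transcripts (CUTs) are short capped RNAs, many of them from divergent promoters, which the exosome normally destroys.

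The sequence in front of HTA1 is shown first because it gave the highest trf4Δ to wild-type ratio near any histone gene. It runs over the 300 bases from 425 to 126 bases before the HTA1 start codon, on the HTA1 coding strand of the S288C R64 reference. The strains used were SK1, which can differ from S288C. Capitals mark matches, on either strand, to the repeat bound by Spt10 in histone promoters. It was searched as TTCC, then any 6 bases, then TTC, any base and C.
HTA1 upstream: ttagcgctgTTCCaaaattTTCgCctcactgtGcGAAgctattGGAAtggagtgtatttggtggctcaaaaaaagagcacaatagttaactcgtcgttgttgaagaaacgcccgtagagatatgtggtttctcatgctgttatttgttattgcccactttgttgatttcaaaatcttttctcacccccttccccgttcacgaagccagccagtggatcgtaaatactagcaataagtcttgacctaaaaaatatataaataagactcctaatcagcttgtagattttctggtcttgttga
The same bases correspond to IV:915101-915400 in the SGD1.01 coordinates of the files, where trf4Δ had 1615 reads and wild type had 13. Of 6018 promoters of 600 bp, 208 (3.46%) held the motif, and all 8 core histone promoters were among them, while those of HTZ1 and HHO1 were not. The repeat searched is one already known from histone promoters, so its presence in them is not a result of these data. A match is a run of letters and not a measured binding site, and both genes of a divergent pair share their matches. One match per pair is given here with its distance from a start codon, capitals marking the fixed letters.
HTA1-HTB1, 416 to 402 bases before HTA1: TTCCaaaattTTCgC
HTA2-HTB2, 330 to 316 bases before HTA2: TTCCcattatTTCtC
HHT1-HHF1, 274 to 260 bases before HHF1: TTCCgagcgcTTCtC
HHT2-HHF2, 310 to 296 bases before HHT2: TTCCgagcacTTCgC
No other motif was searched.

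The copies of each core histone gene resemble each other closely, which limits how well reads can be assigned to one of them. In R64, HTA1 and HTA2 had 374 of 399 bases in common (93.7%), HTB1 and HTB2 348 of 396 (87.9%), HHT1 and HHT2 383 of 411 (93.2%), and HHF1 and HHF2 304 of 312 (97.4%). The least similar 60 bases of the most and the least divergent pair are shown to give the scale of this, with the differing bases in capitals.
HTB1, bases 48 to 107: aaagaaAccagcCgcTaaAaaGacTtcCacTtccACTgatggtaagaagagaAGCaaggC
HTB2, bases 48 to 107: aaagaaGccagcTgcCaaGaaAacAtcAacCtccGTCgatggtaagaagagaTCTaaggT
HHF1, bases 163 to 222: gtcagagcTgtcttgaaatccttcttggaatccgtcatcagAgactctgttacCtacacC
HHF2, bases 163 to 222: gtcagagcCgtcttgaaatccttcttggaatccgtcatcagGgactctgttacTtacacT
These windows held 15 differences in the H2B genes and 4 in the H4 genes. The longest run shared by HHF1 and HHF2 was 80 bases, against 35 for the H2B genes. All 361 stretches of 36 bases in each H2B gene occurred at 1 place in the genome, as did 90.1% of those in HTA1 and HTA2, 79.3% in HHT1 and HHT2 and 66.4% in HHF1 and HHF2. HTZ1 and HHO1 were unique throughout at this length. The read length is not given in the sources used here, so 36 bases is a working value.

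Summed over all segments there were 29687088 reads in trf4Δ and 22092372 in wild type, with reads near a segment border counted in both neighbours. These sums are larger than the mapped reads given in the paper. Each wild-type count was brought to the larger sum by a factor of 1.34. Such values are called scaled reads below. The deleted gene, listed as PAP2, had 1 read in trf4Δ against 346 reads (465 scaled) in wild type, as its deletion requires. All 6 meiotic markers checked were past the read minimum in at least 1 library, as were 6246 of 6698 ORFs. SPO11, whose ORF overlapped a CUT, had 2433 reads in trf4Δ and 1955 scaled reads in wild type. The other markers were lower in trf4Δ. DMC1 had 9479 reads in trf4Δ and 22456 scaled reads in wild type. The log2 differences were -1.52 for ZIP1, -1.39 for HOP1, -1.33 for IME2 and -0.45 for REC8. U1 snRNA took 21.8% of the reads in trf4Δ and 15.5% in wild type. Each library had its own sequencing lane, and pre-growth cultures of the genotypes were diluted differently, so lane, culture and genotype cannot be told apart. All ORFs together had a median log2 difference of -0.97 between trf4Δ and scaled wild type, over 6246 ORFs with log2 reads above 6 in at least 1 library. Each histone difference below is to be read beside that value. Intervals are exact binomial 95% intervals of the read counts, and cover counting error only, not the spread between cultures or libraries. Where segments are summed, border reads enter more than once, so those intervals are too narrow even for counting error.

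All 10 histone ORFs passed this minimum, and all 10 had fewer reads in trf4Δ than scaled reads in wild type. This direction rests on the scaling for HTA2 and HHO1, which came out above wild type with the median of all ORFs set to 0, as HHO1 did without scaling. The 10 log2 differences lay between -1.80 and -0.32 with a median of -1.50. Fewer cells expressing the histone genes and less Cbc2-bound histone RNA per cell cannot be told apart in these bulk samples. The paper reports that CUT sites took a much larger share of Cbc2-associated reads in trf4Δ than in wild type. At equal totals this leaves fewer reads for other RNAs, which cannot be told apart from a loss of histone RNA either. ORF reads also include those of CUTs, as 19.7% of nuclear ORFs overlapped a CUT. The 8 core genes together took 45034 of 10951658 ORF reads in trf4Δ, or 0.411% (0.407 to 0.415, Wilson 95% interval), against 100894 of 11628987 in wild type, 0.868% (0.862 to 0.873). By histone, the summed log2 difference was -1.05 for H2A, -1.64 for H2B, -1.74 for H3 and -1.66 for H4. Summed H2A reads were thus the least reduced of the 4 core histones in these libraries. That sum includes the excess reads at the 5′ end of HTA2 described below.

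Of the H2A genes, HTA1 (YDR225W, IV:915526-915924, plus strand, 399 bp) had 2554 reads in trf4Δ against 7166 scaled reads in wild type. The log2 difference was -1.49 (-1.56 to -1.42), 2.81-fold lower in trf4Δ. HTA2 (YBL003C, II:235397-235795, minus strand, 399 bp) had 4494 reads in trf4Δ against 7457 scaled reads in wild type, for a log2 difference of -0.73 (-0.79 to -0.67). HTA2 was therefore 1.66-fold lower and stood above the median of all ORFs, with a lower log2 difference in 57.5% of them. Over segments lying wholly within the ORF it was at -1.15, below the ORF median of -1.04 counted the same way, so its place above the median rests on reads at the edges of the ORF. The H2B gene HTB1 (YDR224C, IV:914313-914708, minus strand, 396 bp) had 8602 reads in trf4Δ against 30040 scaled reads in wild type, for a log2 difference of -1.80 (-1.84 to -1.77). HTB2 (YBL002W, II:236495-236890, plus strand, 396 bp) had 6149 reads in trf4Δ against 15940 scaled reads in wild type, for a log2 difference of -1.37 (-1.42 to -1.33). The H2B gene beside HTA1 was thus 3.49-fold lower and the one beside HTA2 2.59-fold lower.

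The H3 genes were close to each other. HHT1 (YBR010W, II:256329-256739, plus strand, 411 bp) had 4680 reads in trf4Δ against 15167 scaled reads in wild type, for a log2 difference of -1.70 (-1.75 to -1.65). HHT2 (YNL031C, XIV:575641-576051, minus strand, 411 bp) had 4965 reads in trf4Δ against 16980 scaled reads in wild type, for a log2 difference of -1.77 (-1.82 to -1.73). Their counting intervals overlapped. Of the H4 genes, HHF1 (YBR009C, II:255371-255682, minus strand, 312 bp) had 7066 reads in trf4Δ against 20146 scaled reads in wild type, for a log2 difference of -1.51 (-1.55 to -1.47). HHF2 (YNL030W, XIV:576728-577039, plus strand, 312 bp) had 6524 reads in trf4Δ against 22683 scaled reads in wild type, for a log2 difference of -1.80 (-1.84 to -1.76). These intervals did not overlap, but with 66.4% of 36-base stretches unique the split of reads between them is uncertain.

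The genes outside the core set had fewer reads. HTZ1 (YOL012C, XV:303580-303984, minus strand, 405 bp) had 1585 reads in trf4Δ against 4046 scaled reads in wild type, for a log2 difference of -1.35 (-1.44 to -1.26). HHO1 (YPL127C, XVI:308827-309603, minus strand, 777 bp) had 3931 reads in trf4Δ against 4903 scaled reads in wild type, for a log2 difference of -0.32 (-0.38 to -0.25). HHO1 was 1.25-fold lower, the smallest difference of the 10. CSE4, which codes for the centromeric H3 variant and is not 1 of the 10 genes, had 1188 reads in trf4Δ against 2190 scaled reads in wild type, for a log2 difference of -0.88.

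**Figure D1:**
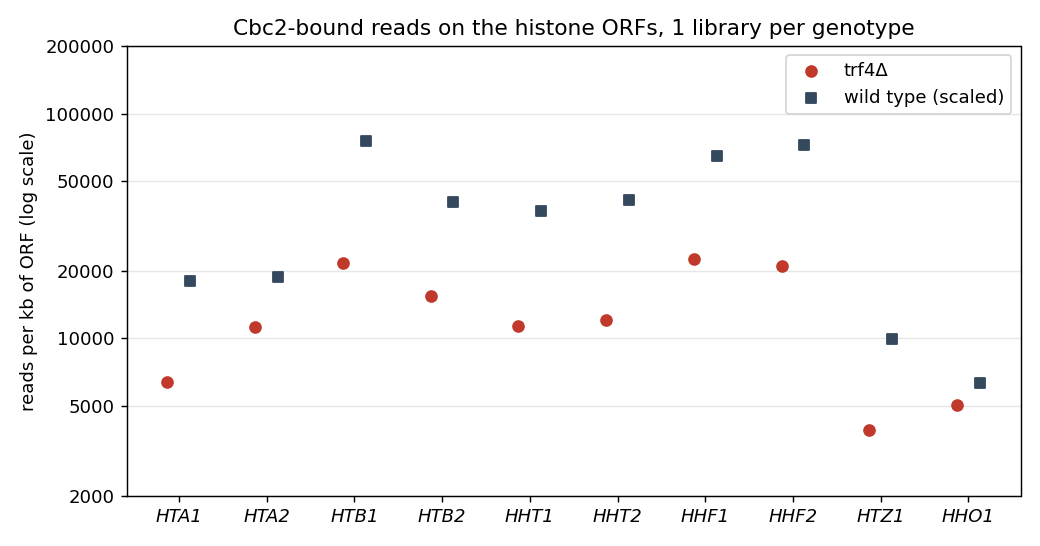
Reads per kb of ORF (log axis) for the 10 histone genes, circles for trf4Δ and squares for wild type after scaling, 1 library each. At this scaling every circle lies below its square, and the gap is smallest for HHO1 (log2 difference -0.32) and largest for HTB1 (-1.80).

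Per kb of ORF, HHF1 was the most abundant histone RNA in trf4Δ with 22647 reads per kb, followed by HTB1 with 21722, HHF2 with 20910 and HTB2 with 15528. HHT2, HHT1 and HTA2 came next with 12080, 11387 and 11263 reads per kb, and HTA1, HHO1 and HTZ1 last with 6401, 5059 and 3914. In wild type the order began with HTB1 (75859 scaled reads per kb), HHF2 (72702) and HHF1 (64570), followed by HHT2 (41314), HTB2 (40252) and HHT1 (36903). HTA2 (18688), HTA1 (17961), HTZ1 (9990) and HHO1 (6311) were the lowest in wild type. HTZ1 thus stood above HHO1 in wild type and below it in trf4Δ. By level, 9 of the 10 stood above 90% of all ORFs in trf4Δ and 10 of 10 did in wild type. If only reads at unique places were counted, levels of the H4 genes are understated: per kb of unique 36-base stretches HHF2 came to 35456 reads in trf4Δ and 123276 scaled reads in wild type, and HTB1 to 23828 and 83213. In that measure HHF2 was above HTB1 in both libraries.

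The balance between copies was set out as the ratio of reads within each library, which needs no scaling. HTA1 to HTA2 was 0.568 (0.541 to 0.597) in trf4Δ and 0.961 (0.925 to 0.998) in wild type. HTB1 to HTB2 was 1.40 (1.35 to 1.45) in trf4Δ and 1.88 (1.84 to 1.93) in wild type. Both H2A and H2B copies of the HTA1-HTB1 locus therefore made up less of their pair in trf4Δ, by more than the counting error. For H2A this difference lay in reads towards the 5′ end. Over segments wholly within the ORF and nearer its 3′ end, the log2 difference was -1.56 for HTA1 and -1.57 for HTA2. HHT1 to HHT2 was 0.943 (0.906 to 0.981) in trf4Δ and 0.893 (0.871 to 0.916) in wild type, with overlapping intervals. HHF1 to HHF2 was 1.08 (1.05 to 1.12) in trf4Δ and 0.888 (0.869 to 0.908) in wild type.

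Against all ORFs 8 of the 10 histone genes lay below the median, and none reached the study's 4-fold cut-off. HTB1, the lowest, still had 17.6% of all ORFs below it, and HHO1, the highest, had 66.4%. None of the 10 was more than 4-fold higher in trf4Δ, where 8.10% of all ORFs were, and none was more than 4-fold lower, where 10.5% were. More than 2-fold lower were 8 of 10, beside 48.9% of all ORFs, and more than 2-fold higher were 0 of 10, beside 15.3%. With the median of all ORFs set to 0, 0 of 10 were more than 2-fold lower, beside 11.6%, and without scaling 6 were, beside 33.3%. With ORF reads as counted by the authors, the same 8 genes lay below the median of all ORFs, the exceptions being HTA2 and HHO1. Counted over segments wholly within the ORF, 9 of 10 lay below it and 9 of 10 were more than 2-fold lower, beside 51.5% of all ORFs, HTA2 being the gene that changed place. The members' median of -1.50 was 0.53 below the ORF median on the log2 scale. No histone ORF overlapped a CUT, while 19.7% of nuclear ORFs did, so the median of all ORFs includes ORFs with CUT reads. The histone genes were not compared with ORFs free of CUTs or of like level, so their place is not shown to be particular to them.

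**Figure D2:**
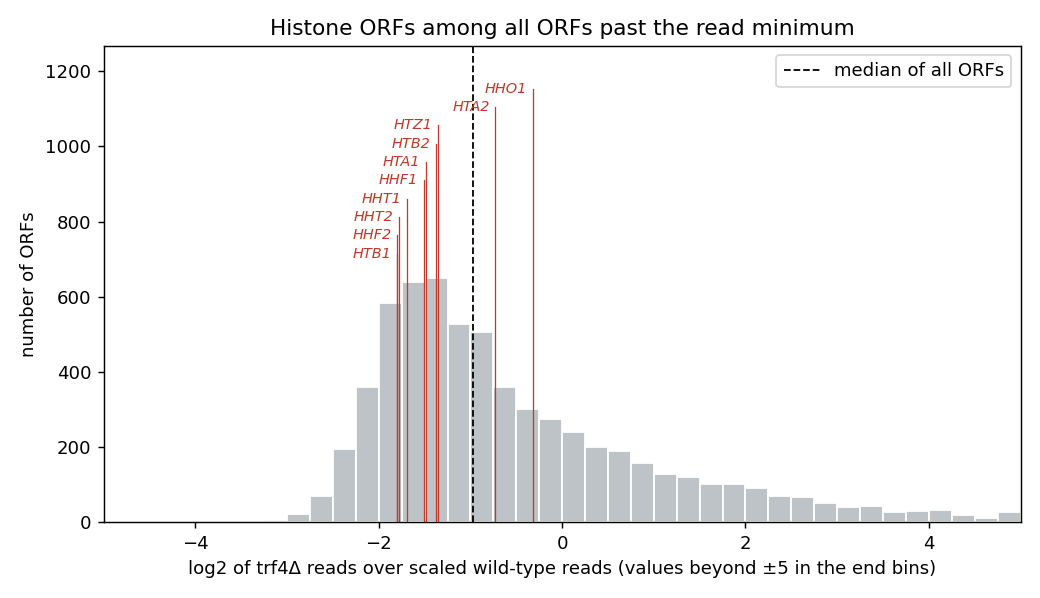
Number of ORFs (vertical axis) by log2 of trf4Δ reads over scaled wild-type reads (horizontal axis), in grey bars over 6246 ORFs, with a red line for each histone gene and a dashed line at the median of all ORFs (-0.97). The heights of the red lines only separate the names. HTA2 and HHO1 are right of the dashed line and the other 8 genes left of it.

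The flanks of the histone genes behaved otherwise than the ORFs. Of the 137 segments, 20 exceeded 4-fold in favour of trf4Δ and 7 in favour of wild type, beside 11.0% and 14.3% of all segments with reads. Of 35 segments upstream of the histone genes, 11 were higher (31.4%) and 0 lower, with a median log2 difference of 0.53. Counted as for all genes, 48 segments of the histone windows lay outside ORFs within 500 bp upstream of an ORF, neighbours included, and 13 of them were higher (27.1%) and 1 lower. Over the genome 29.4% of such segments were higher and 4.57% lower. Of 52 segments touching the histone ORFs, 0 were higher and 2 lower, with a median of -1.50. The shares over all segments touching ORFs were not computed, so a contrast of flanks with ORFs is not shown to be particular to histone genes. Of 50 segments downstream, 9 were higher and 5 lower, but 18 of them overlapped another ORF. The 19 histone segments that lay downstream only, outside any ORF, included 5 that were higher (26.3%) and 0 that were lower, beside 23.7% and 4.65% of all such segments. For the 10 genes together, both shares of higher segments counted in this way were near those of the flanks of other genes.

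The loci differed among themselves. The HTA1-HTB1 locus held 10 of the 20 higher segments in its 27 segments, and the HTA2-HTB2 locus 4 in 26. HHO1 had 3 in 19, HHT1-HHF1 2 in 25, HHT2-HHF2 1 in 25 and HTZ1 0 in 15. Over all segments with reads 11.0% were higher, but of those outside ORFs 29.4% were upstream and 23.7% downstream of an ORF. At HTA1-HTB1 the higher segments were 6 of 7 upstream and 4 of 10 downstream. The loci also differ in how many flank segments overlap other ORFs. At HTA2-HTB2, 2 of the 4 overlapped the neighbouring UTP20 ORF, so the higher segments were concentrated at HTA1-HTB1.

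**Figure D3:**
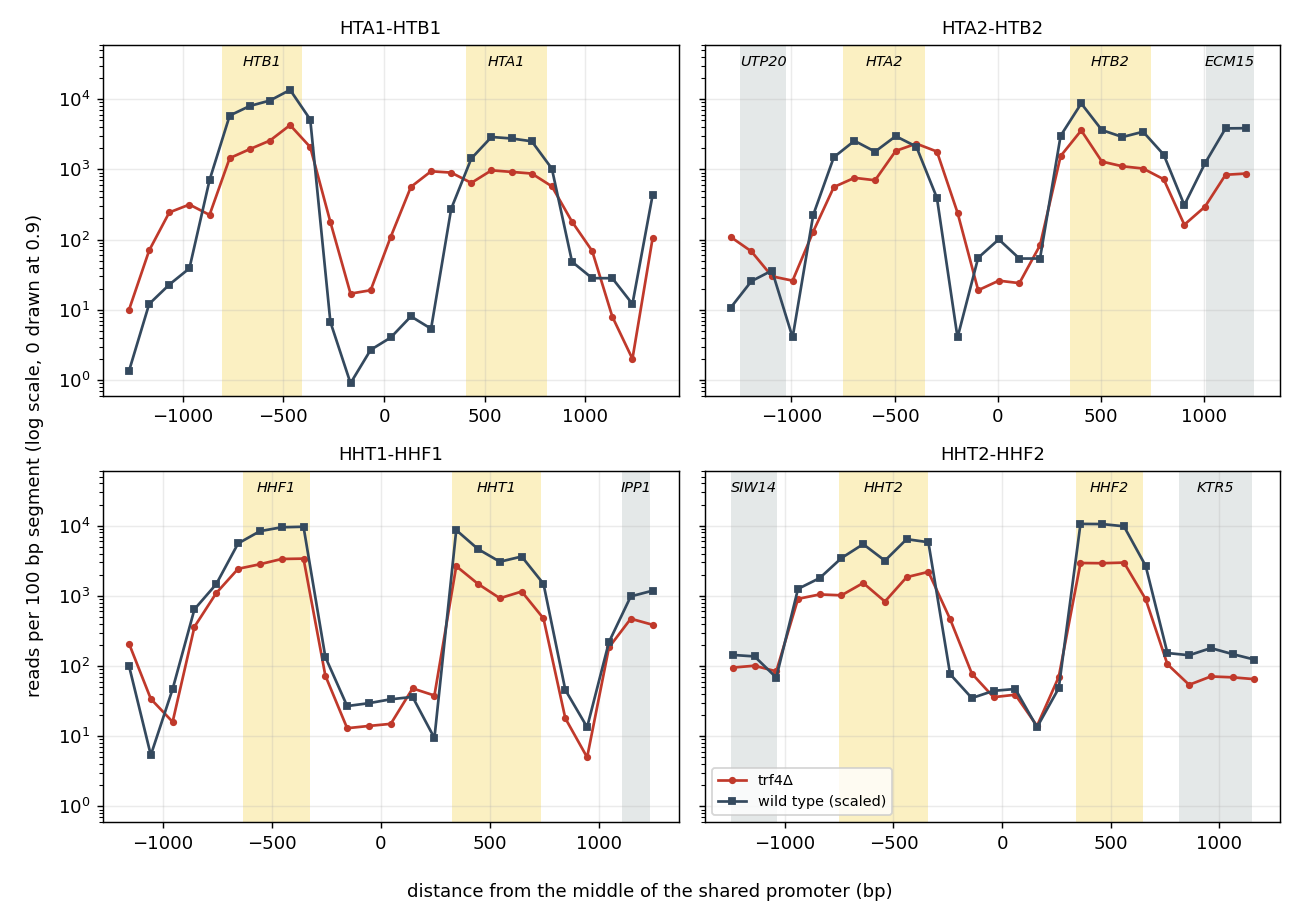
Reads per 100 bp segment (log axis, 0 drawn at 0.9) against distance from the middle of the shared promoter for the 4 divergent pairs, circles for trf4Δ and squares for wild type after scaling, with histone ORFs in yellow and neighbouring ORFs in grey. Over the histone ORFs trf4Δ runs below wild type except at the 5′ end of HTA2, and in front of HTA1 it runs far above it, with up to 941 reads in a segment that had 4 unscaled reads in wild type.

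The shared promoters of the divergent pairs were compared over the segments lying wholly between the ORFs. At HTA1-HTB1 (IV:914801-915500, in a gap of 817 bp) there were 2730 reads in trf4Δ against 302 scaled reads in wild type, for a log2 difference of 3.17 (2.98 to 3.38). At HTA2-HTB2 (II:235801-236400, in a gap of 699 bp) there were 2192 reads in trf4Δ against 661 scaled reads in wild type, for a log2 difference of 1.73 (1.59 to 1.87). At HHT2-HHF2 (XIV:576101-576700, in a gap of 676 bp) there were 703 reads in trf4Δ against 265 scaled reads in wild type, for a log2 difference of 1.41 (1.18 to 1.64). At HHT1-HHF1 (II:255701-256300, in a gap of 646 bp) there were 201 reads in trf4Δ against 270 scaled reads in wild type, for a log2 difference of -0.43 (-0.72 to -0.14). So 3 of the 4 promoters had more reads in trf4Δ while all 8 ORFs they serve had fewer at this scaling. Over the genome, the median ORF was at -0.97. Of segments outside ORFs within 500 bp upstream of an ORF, 29.4% were more than 4-fold higher. Divergent promoters of other genes were not counted, so the pattern is not shown to be particular to histone loci. With the median of all segments past the read minimum set to 0, the HHT1-HHF1 promoter was also higher (0.66). With the median of all ORFs set to 0, HTA2 was no longer lower (0.24).

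Within the HTA1-HTB1 promoter the reads lay mostly on the HTA1 side. Unscaled reads in the segments starting at IV:915001, 915101, 915201, 915301 and 915401 were 19, 110, 564, 941 and 901 in trf4Δ, and 2, 3, 6, 4 and 205 in wild type. The level in trf4Δ grew towards HTA1 and stayed there up to the segment before the ORF, the only one of the 5 with more than 6 wild-type reads. The segment at 915301 had the largest log2 difference of all 137, at 7.45. The sequence printed above covers the segments from 915101 to 915400, whose summed log2 difference was 6.53 (5.75 to 7.44). On the HTB1 side, the segment at 914801 had 178 reads in trf4Δ against 5 in wild type, and that at 914901 had 17 and 0. Since the library was prepared with random primers and without strand marking, reads between the genes cannot be assigned to the strand of HTA1 or of HTB1.

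This stretch was 1 of the 2 CUTs found within 500 bp of a histone gene with the study's steps. The CUT at IV:914801-915400 (600 bp) held 1829 reads in trf4Δ against 26.9 scaled reads in wild type. Its mean log2 difference over segments was 4.95, beside a median of 3.38 over 1573 CUTs, and it ranked 70 among them. The other, at IV:913801-914200 (400 bp) downstream of HTB1, held 640 reads in trf4Δ against 75.3 scaled reads in wild type, with a log2 difference of 2.97 and a rank of 1107. With these, 2 of 10 histone genes (HTA1 and HTB1) had a CUT within 500 bp, beside 41.1% of nuclear ORFs. Both CUTs were at 1 of the 4 divergent loci, and neither was called at a noise cut-off of 7 in place of 6.

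At HTA2 the excess reads reached into the ORF. Upstream, the segment at II:235801 had 1798 reads in trf4Δ against 293 in wild type (log2 difference 2.19 after scaling), and that at 235901 had 242 and 3 (5.91, interval 4.34 to 8.20). The segment at 235701, which holds the 5′ end of the ORF, had 2331 reads in trf4Δ against 1575 in wild type, for a log2 difference of 0.14. The next segment into the ORF, at 235601, had 1834 and 2217 (-0.70), and the 2 segments nearer the 3′ end together had 1460 and 3237 (-1.57). The log2 difference of HTA2 thus fell along the ORF to a value like that of HTA1. Over segments lying wholly inside the ORF it was -1.15, against -0.73 for the whole ORF. The first 65 bases of HTA1 and HTA2 are identical, so some reads at their 5′ ends could not be told apart. The sequence of the segment at 235901, from 205 to 106 bases before HTA2, is shown because wild type had almost no reads there.
HTA2 upstream: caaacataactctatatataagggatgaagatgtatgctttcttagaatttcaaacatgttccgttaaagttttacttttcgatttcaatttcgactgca
On the HTB2 side of this promoter, the 2 segments nearest the gene had 107 reads in trf4Δ and 108 scaled reads in wild type.

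Around the H3 and H4 genes the largest upstream value was in front of HHT2, where the segment at XIV:576101 had 466 reads in trf4Δ against 57 in wild type, for a log2 difference of 2.61. The 2 segments before HHF2 had 84 reads in trf4Δ and 61.8 scaled reads in wild type, with an interval that spanned 0 (-0.09 to 0.99). Before HHF1 there were 86 reads in trf4Δ and 161 scaled reads in wild type. The 3′ flanks of HHT2, HHF1 and HHF2 were less reduced than their ORFs. The 2 segments after HHT2 had a log2 difference of -0.64 (-0.73 to -0.55), those after HHF1 -0.54 (-0.64 to -0.43) and those after HHF2 -0.89 (-1.19 to -0.59). After HHF2 the nearer segment was at -0.53, and the farther one, at -1.40, overlapped the neighbouring KTR5 ORF. After HHT1 the value was -1.36 (-2.16 to -0.60), from 23 reads in trf4Δ and 59.1 scaled reads in wild type, and its interval included the log2 difference of the HHT1 ORF. After HHF1 these segments held 1458 reads in trf4Δ and 2114 scaled reads in wild type, and after HHT2 1953 and 3049.

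HTZ1 and HHO1, which have promoters of their own, differed from each other. The 2 segments before HTZ1 had 836 reads in trf4Δ against 1430 scaled reads in wild type, for a log2 difference of -0.77 (-0.91 to -0.64). In its ORF the 5′ part was at -1.62 and the 3′ part at -1.21. Before HHO1 the 2 segments had 87 reads in trf4Δ against 14.8 scaled reads in wild type, for a log2 difference of 2.56 (1.65 to 3.61), and after it 279 against 60.5 (2.21, interval 1.75 to 2.69). The HHO1 ORF was at -0.23 in its 5′ part and -0.53 in its 3′ part. HHO1, the gene least reduced of the 10, thus had 1 upstream and 2 downstream segments past 4-fold in favour of trf4Δ, and HTZ1 had 0. Below that cut-off, the 2 segments after HTZ1 also had more reads in trf4Δ, 228 against 137 scaled reads (0.73, interval 0.39 to 1.09).

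**Figure D4:**
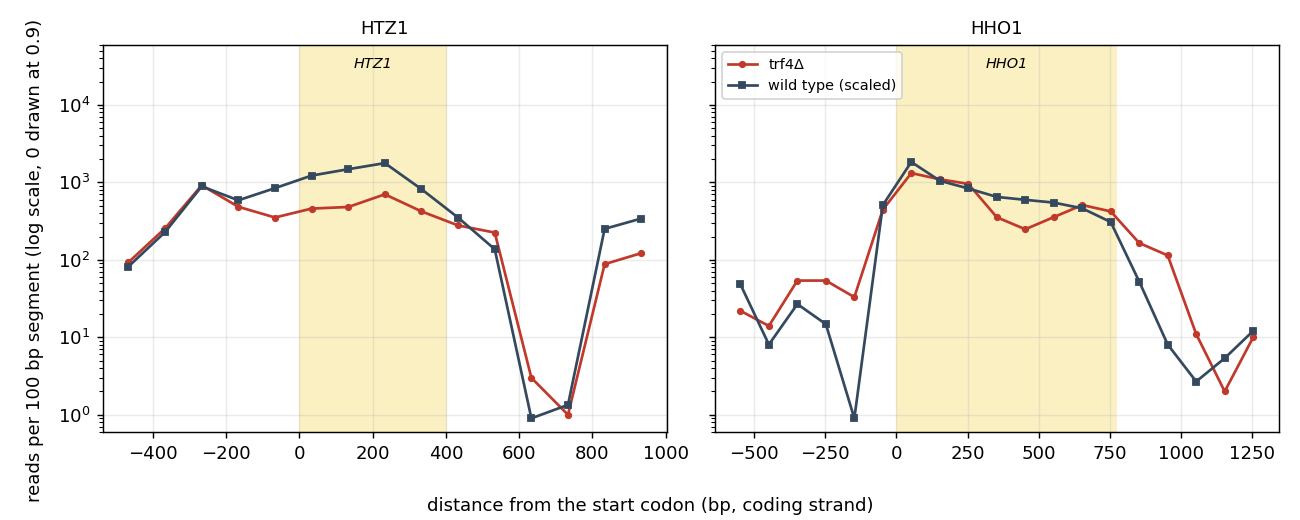
Reads per 100 bp segment (log axis, 0 drawn at 0.9) against distance from the start codon along the coding strand for HTZ1 and HHO1, circles for trf4Δ and squares for wild type after scaling, with the ORF in yellow. Upstream of HHO1 wild type drops to 0 reads in a segment with 33 reads in trf4Δ, while at HTZ1 trf4Δ stays at or below wild type across the ORF.

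The 5 neighbouring ORFs within 500 bp did not move as a group with the histone genes. ECM15, next to HTB2, had 1838 reads in trf4Δ against 7954 scaled reads in wild type, for a log2 difference of -2.11. IPP1, the inorganic pyrophosphatase gene next to HHT1, had 1654 against 7659 (-2.21). These were lower by more than 4-fold and by more than the histone genes beside them. UTP20, a ribosome biogenesis gene next to HTA2, was at 0.15, the phosphatase gene SIW14 next to HHT2 at -0.14, and KTR5, a mannosyltransferase family gene next to HHF2, at 1.41. KTR5 was the only one of them to overlap a CUT.

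Genes that act on histones or with them were counted from lists of named members. Of 12 regulators of histone genes, 0 were more than 4-fold higher in trf4Δ and 1 was more than 4-fold lower, beside 8.10% and 10.5% of all ORFs, and the list's median log2 difference was -1.31. The lower gene was SWI6 (-2.12), a subunit of SBF, followed by the chaperone gene RTT106 (-1.81). The activator genes SPT10 (0.93) and SPT21 (0.31) were the highest, and SPT10 overlapped a CUT. Spt10 is the protein whose repeat was searched in the promoters above, and its gene had 809 reads in trf4Δ against 426 scaled reads in wild type.

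Of 12 histone chaperone and nucleosome assembly genes, 2 were more than 4-fold higher and 1 lower, with a median of -1.26, beside the same 8.10% and 10.5% of all ORFs. The 2 were RTT109 (2.24), which acetylates H3 on lysine, and RLF2 (2.03), a subunit of the assembly factor CAF-1. VPS75 (-2.16), a chaperone that works with Rtt109, and POB3 (-1.99), a subunit of FACT, were the lowest. Of 14 SWR1 complex genes, 1 was more than 4-fold higher and 1 lower, near those shares, with a median of -1.37. SWC5 was at 3.23 and RVB2, an ATPase subunit, at -2.36, with SWC7 (-0.22) and the actin gene ACT1 (-1.83) next at either end.

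Of 17 DNA replication genes, 2 were more than 4-fold higher and 1 lower, beside 8.10% and 10.5% of all ORFs. The median was -0.55, the only one of the 4 lists above the ORF median. CDC21 (3.87), the thymidylate synthase gene, and POL1 (2.01), the catalytic subunit of DNA polymerase alpha, were the highest. PRI1 (-2.01), a primase subunit, and RFA3 (-1.65), a subunit of replication protein A, were the lowest. All 5 listed ORFs that were more than 4-fold higher overlapped a CUT, so their ORF reads include those of the CUT, and none of the 10 histone ORFs did. CUTs were called from the same reads at the same 4-fold cut-off, so this overlap is not a separate observation.

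**Figure D5:**
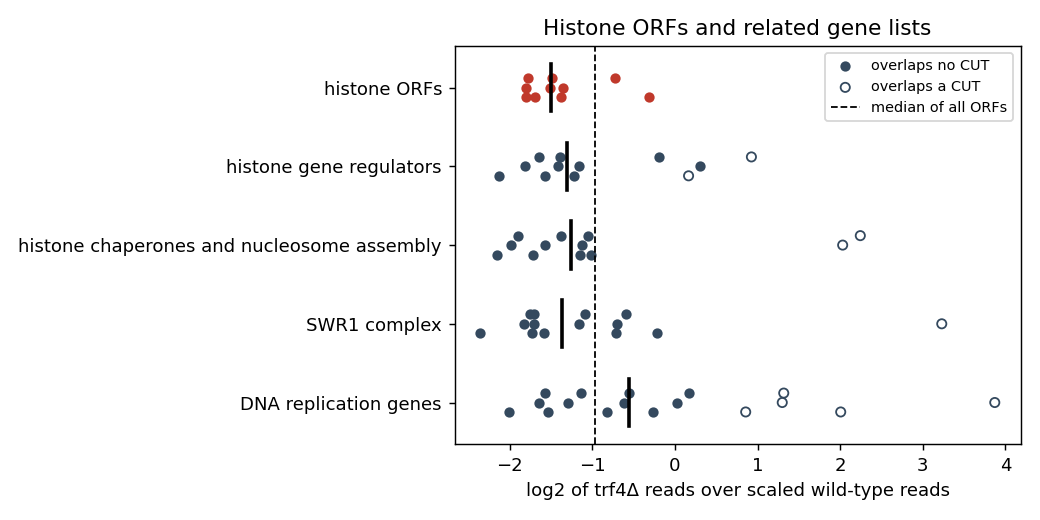
Log2 of trf4Δ reads over scaled wild-type reads (horizontal axis) for the 10 histone ORFs and 4 gene lists, 1 point per ORF, open where the ORF overlaps a CUT, with a thick bar at the median of each list and a dashed line at the median of all ORFs (-0.97). The histone ORFs have the lowest median (-1.50), and the points past 2 on the right are all open, CUTs being called from the same reads.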

How the data were processed

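Both libraries were made from Cbc2-bound RNA with random primers and sequenced by the authors. Per the labels and methods, reads were trimmed with Trim Galore 0.3.5, mapped with Bowtie 0.12.7 and summed in SeqMonk over SGD1.01 features. The authors deposited log2 read values for 100 bp segments and for ORFs, and the tables do not say which of the study's mappings (unique reads, or non-unique reads placed at random) they hold. The log2 step was undone to whole reads (0.9 stands for 0 reads, and wild-type ORF values carried a factor of 1.34, which was removed). After removal of 139 segments of 37S pre-rRNA, wild-type reads were scaled to the trf4Δ total. Of the histone segments 3 had 0 reads in 1 library. They entered log2 ratios at 0.9, and the 2 of them past 4-fold stayed past it with 3 reads in place of 0. Reads near a segment border were counted in both neighbours. CUTs followed the study's steps (more than 4-fold per segment, joined up to 300 bp, at least 300 bp, mean log2 reads above 6), here per chromosome. These steps and the intervals were tested on simulated data.

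ORFs needed log2 reads above 6 (64 reads) in at least 1 library. Genes were named by rule: the 10 members, ORFs within 500 bp, PAP2, CSE4, and of each list the 2 highest, the 2 lowest and any past 4-fold. The members and lists were chosen with earlier results of these data known. DMC1 and SPO11 were named as meiotic checks. Sequences come from R64, read by locus tag. Distances between the paired genes and ORF lengths are the same in SGD1.01. Alternatives changed the scaling, cut-offs, window, read minimum, source of ORF reads and stretch length. Tables were computed with pandas 2.3.3, numpy 2.4.6 and scipy 1.17.1 under Python 3.11.15, and drawn with matplotlib 3.10.9.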

Additional observations from a re-analysis of the deposited data

How the results depend on the processing

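The size of the histone differences, and the sign for HTA2 and HHO1, depended on how the libraries were scaled. With the median of all ORFs set to 0 the members' median was -0.53, and HTA2 (0.24) and HHO1 (0.65) were then above 0. It was -1.39 with totals without U1 reads and -1.07 without scaling, where HHO1 was at 0.11. Each of these scalings shifts every ORF by the same log2 amount. The count of 8 of 10 members below the median of all ORFs therefore could not change, and is no check. For the segments, CUTs and promoters below, the median set to 0 is that of segments, not of ORFs. These segments had log2 reads above 6 in at least 1 library. At a 2-fold cut-off 8 of 10 ORFs were lower, beside 48.9% of all ORFs, and over segments wholly within the ORF 9 of 10 were, beside 51.5%. Higher and lower segments, with the shares of all segments, were 30 and 0 of 137 with the median set to 0 (19.2% and 1.02%), 21 and 3 without U1 (11.8% and 11.0%), 24 and 1 without scaling (13.6% and 4.97%), 30 and 65 at 2-fold (18.4% and 47.4%) and 11 and 0 at 8-fold (5.89% and 1.30%). They were 11 and 2 of 92 in windows of 200 bp and 25 and 23 of 197 in windows of 1000 bp, beside 11.0% and 14.3%. With at least 64 reads 12 and 6 of 106 were counted, beside 18.3% and 16.3%, so that the share of higher segments was then below that of all segments. The CUTs near histone genes numbered 1 at 8-fold and 0 at a noise cut-off of 7, and 3, with another near HTA2, under each of the 3 other scalings, at 2-fold and at a noise cut-off of 5. With the median set to 0 and without scaling, the promoters were at 4.26 and 3.60 (HTA1-HTB1), 2.82 and 2.16 (HTA2-HTB2), 2.50 and 1.84 (HHT2-HHF2), and 0.66 and 0 (HHT1-HHF1), so that the last was not below 0 there. Unique stretches over the 10 ORFs made up 89.3% at 36 bases, 86.2% at 30 and 93.8% at 50. No paired analysis was possible because each genotype has 1 library, and for the same reason no replicate could be left out.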
